A study of Mus musculus with 12 samples.

Results

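The miRNAs of the mouse hippocampus were compared between 6 h after electroconvulsive shock (ECS) and no treatment. ECS is a brief current across the head that evokes a seizure and fires neurons throughout the brain, and 6 h lies after the first wave of activity-regulated transcription. Small RNA was sequenced from 12 hippocampi of C57BL/6NCrl mice, in 2 time courses of 6 libraries each. Per the methods of the study, the mice were young adult males. Each time course held 1 untreated mouse (NT, labelled 0 hr) and 1 mouse for each of 5 times after ECS, which were 0.5 h, 1 h, 3 h, 6 h and 24 h. Every library came from 1 wild-type animal. The animals differed in ECS, in time after it and in time course, with no sham-handled group among them. The study reported a batch effect between the time courses and could not assign it to library construction or to sequencing. The comparison therefore rests on 4 libraries, NT-1 and 6h-1 of the first time course and NT-2 and 6h-2 of the second, compared within their own time course. A miRNA hairpin gives reads from its 5′ side (5p) and its 3′ side (3p), and each side is called an arm. Of 1063 arms with a read in any library, 469 arms of 328 miRNAs had 10 or more counts in at least 2 of the 12 libraries and were tested. Of these 469, 203 arms moved the same way in both pairs, and they are the subject of this account.

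A miRNA is cut from its hairpin by the nucleases Drosha and Dicer, which leave a short duplex. Usually 1 strand of the duplex is loaded into an Argonaute protein and the other is degraded. The loaded strand finds messenger RNAs mainly through its seed, bases 2 to 8 from the 5′ end, and lowers their translation and stability. In the hippocampus miRNAs are abundant in neurons, where they restrain synthesis of synaptic proteins, and some of their genes respond to neuronal activity. The best known are miR-132 and miR-212, transcribed under the control of CREB, and the large cluster of imprinted miRNAs between miR-379 and miR-410 in the Dlk1-Dio3 domain, whose transcription is driven by Mef2.

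The sequences of the arms with the largest differences shared by both pairs are shown first, since miRNA families are defined by the seed. They are the RefSeq mature sequences on GRCm38.p6, 5′ to 3′, with the seed in capitals. Among abundant arms (0.1% or more of miRNA counts on average over the 4 libraries), and with miR-376b-3p added for its family, those higher at 6 h were:
miR-376a-3p: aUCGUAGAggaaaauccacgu
miR-376b-3p: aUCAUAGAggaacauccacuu
miR-340-5p: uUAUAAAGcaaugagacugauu
miR-22-3p: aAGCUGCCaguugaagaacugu
miR-186-5p: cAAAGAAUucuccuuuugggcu
miR-21a-5p: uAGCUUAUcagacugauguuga
miR-142a-5p: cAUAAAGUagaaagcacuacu
miR-9-3p: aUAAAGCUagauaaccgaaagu
let-7d-5p: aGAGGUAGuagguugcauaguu

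Those lower at 6 h, with miR-30a-3p and miR-181b-5p added because they share a seed with an arm in the set, were:
miR-341-3p: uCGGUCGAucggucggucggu
miR-30e-3p: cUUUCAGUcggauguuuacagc
miR-30a-3p: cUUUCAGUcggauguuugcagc
miR-744-5p: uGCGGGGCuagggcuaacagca
miR-181a-5p: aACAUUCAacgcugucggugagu
miR-181b-5p: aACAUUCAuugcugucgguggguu
miR-666-5p: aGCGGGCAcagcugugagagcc
miR-127-3p: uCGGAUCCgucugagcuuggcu
miR-125b-5p: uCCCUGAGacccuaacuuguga
The lower set also held miR-598-3p. The lower arms carry visibly more G and C than the higher ones, a feature whose values are given with the results below.

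The 4 libraries were unequal before any comparison. Reads matching miRNA hairpins exactly numbered 1067558 in NT-1, 439336 in 6h-1, 4282006 in NT-2 and 1321437 in 6h-2, which were 29.1%, 10.1%, 56.5% and 69.6% of accepted reads. The 6h libraries thus held the lowest and the highest miRNA share of all 12. Of the untreated libraries NT-2 held more miRNA reads here, while the study's read table gives more to its NT-1. The deposited replicate numbers were used, and every within-pair value depends on them. NT-1 stood apart in tag length, with 51.4% of its miRNA counts in tags of 18 to 19 nt against 16.9% in 6h-1, 1.69% in NT-2 and 3.78% in 6h-2. Elsewhere in the first time course this share lay between 4.54% and 13.8%. Of the 469 arms, 297 (63.3%) differed more than 2-fold between the untreated libraries and 310 (66.1%) between the 6 h libraries. The difference between 6 h and NT passed 2-fold in fewer arms, 253 in the first pair and 233 in the second. Brain origin, though not the region, was checked against 10 brain-enriched miRNAs, among them miR-124, miR-9 and miR-128, all of them detected. Their arms made up 31.6%, 20.1%, 11.6% and 17.2% of the miRNA counts in NT-1, 6h-1, NT-2 and 6h-2. As tissue was measured whole, fewer cells of a type and less RNA per cell cannot be told apart in any value given here.

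**Figure D1:**
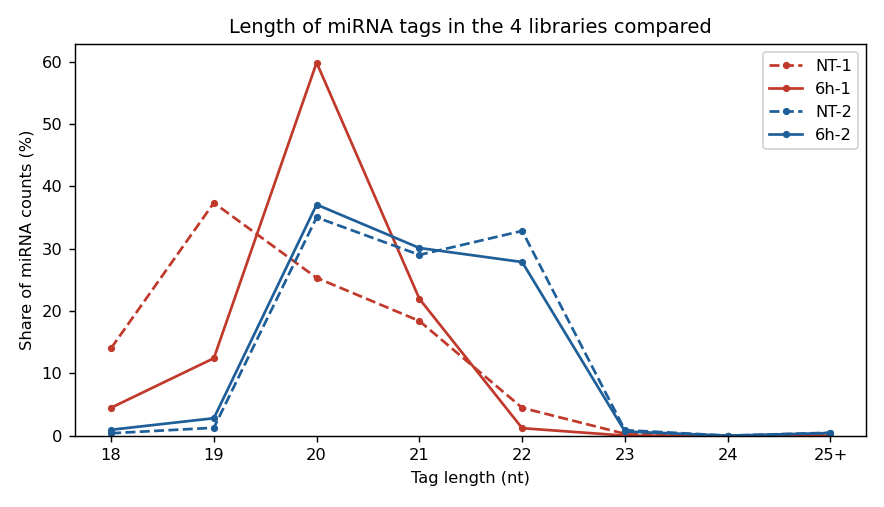
Share of miRNA counts (vertical axis, %) by tag length (horizontal axis, nt) in the 4 libraries compared, the last point holding all tags of 25 nt and more. NT-1 peaks at 19 nt (37.4%), 6h-1 at 20 nt (59.8%), and both libraries of the second time course lie mainly between 20 and 22 nt.

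Together 43.3% of the arms tested moved the same way. At 6 h, 89 arms were higher in both pairs (19% of the 469 tested) and 114 were lower in both (24.3%). Another 231 arms moved in opposite ways in the pairs, and 35 had no count in both libraries of a pair. A difference of 2-fold or more in both pairs was found for 19 higher arms (4.05%) and 38 lower arms (8.1%). Against that, 25 arms were 2-fold higher in the first pair and 2-fold lower in the second, and 39 were the reverse. Over the 469 arms the changes of the pairs had a correlation of -0.04 (Pearson's r), and over the 71 abundant arms it was 0.08. The points share a depth and a normalization factor within each pair, and the values are descriptions. These directions chose the members and carry no test. At the edge of the rule, miR-467a-3p was just inside, with log2 changes of 0.003 and 3.27, and miR-486-5p just outside, with 1.07 and -4.1e-05.

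The split between higher and lower depends on the scaling. Levels are given as CPM, the reads of an arm per 1000000 miRNA reads, scaled by the trimmed mean of M values (TMM) with factors of 1.503 for NT-1, 1.401 for 6h-1, 0.9115 for NT-2 and 0.6479 for 6h-2. With TMM 43.8% of the arms that moved together were higher, and with total miRNA counts 28.7% (58 higher, 144 lower). Per accepted read only 16.5% were higher (43 against 218), since the miRNA share itself was low in 6h-1, and the median of all arms was then -1.38 in the first pair and -0.26 in the second on the log2 scale, against 0 and -0.10 with TMM. With a smooth trend on GC content removed the balance turned, and 54.5% were higher (115 against 96). The 2-fold sets moved less. All 19 higher and 38 lower arms kept their direction with total miRNA counts, and 16 and 38 did so per accepted read.

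**Figure D2:**
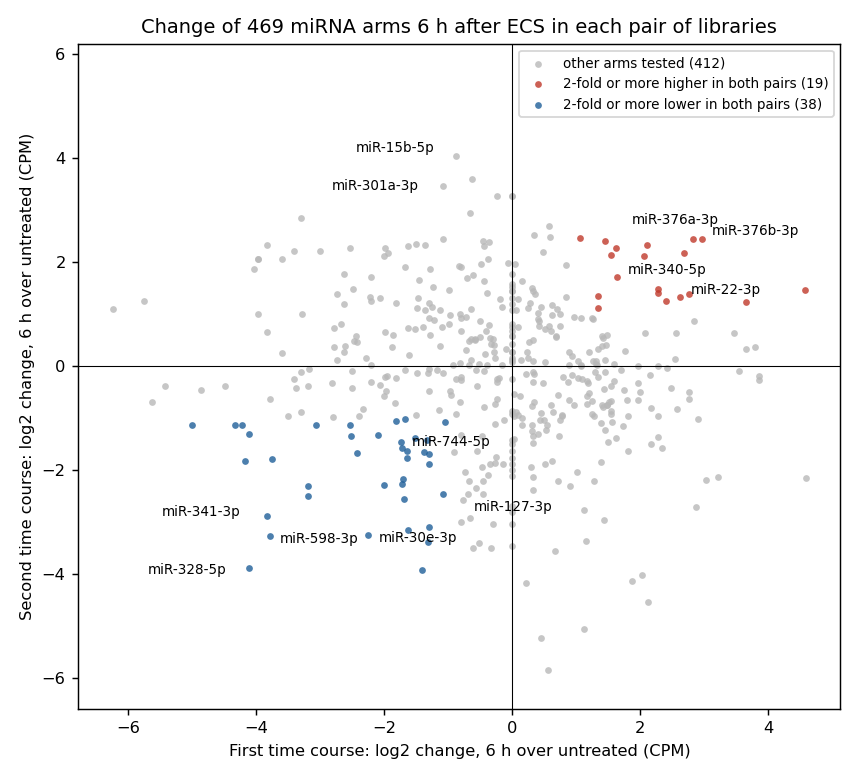
Each point is 1 of the 469 arms, with its log2 change in CPM from NT to 6 h in the first time course (horizontal axis) and in the second (vertical axis). Arms that differ 2-fold or more the same way in both are red (19 higher) or blue (38 lower), and the cloud of the other 412 shows no common slope (r = -0.04 over all 469).

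The full model found no arm past an adjusted p of 0.05, which does not show that levels did not differ. The quasi-likelihood test of edgeR on all 12 libraries, with no term for the time course, called 0 of 469 arms (0%), and the smallest adjusted p was 0.994. At an unadjusted p under 0.05 it gave 9 arms (1.92%), 1 higher (0.213%) and 8 lower (1.71%). The replicate number marks the time course, so the libraries are paired. When a term for the course was added, edgeR also called 0 arms and gave 32 at an unadjusted p under 0.05 (6.82%), 10 higher (2.13%) and 22 lower (4.69%). This term is called the block from here on. Without NT-1 the 32 became 9, without 6h-1 50 and without NT-2 72, and the number without 6h-2 was 32. DESeq2 without the block called 0 arms and gave 27 (5.76%). DESeq2 with the block gave 50 (10.7%) and called 3 arms (0.64%), all lower at 6 h, which were miR-598-3p, miR-341-3p and miR-328-5p (DESeq2 adjusted p = 0.0467 for each). Their adjusted p in edgeR was 0.576 with the block and 0.994 without it. For a single arm, an exact permutation test of 2 libraries against 2 cannot go below p = 0.333, or below 0.5 within pairs, so none was run.

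The 3′ arms of the miR-376 family stood out among the higher arms. These miRNAs lie close together in the miR-379/410 cluster on the plus strand of chromosome 12 (GRCm38). Mir376c is at chr12:109722718-109722803, Mir376b at chr12:109723458-109723539 and Mir376a at chr12:109723781-109723848. No annotated host gene overlaps any of the 3 hairpins on that strand. For miR-376a-3p the level was 1432 CPM in NT-1 and 10157 in 6h-1, and 1996 in NT-2 and 10897 in 6h-2. Both 6 h libraries lay above both untreated ones, by 7.09-fold in the first pair and 5.46-fold in the second. The fitted log2 fold change was 2.62 ± 1.28 (SE), with an unadjusted p of 0.062 in edgeR and of 0.023 with the block, and stayed between 2.40 and 2.67 with each library left out in turn. Its neighbour miR-376b-3p was at 147 and 1154 CPM in NT-1 and 6h-1 and at 210 and 1147 CPM in NT-2 and 6h-2. It was named after its values were seen, as the closest relative of miR-376a-3p. The rarer miR-376c-3p, 16.8 and 112 CPM in the first pair and 54.3 and 248 in the second, was the 1 higher arm among the 9 picked out by edgeR. Its log2 fold change was 2.33 ± 1.03 (SE, edgeR unadjusted p = 0.042). All counts of these 3 arms came from tags that match a single miRNA, and the seeds UCGUAGA and UCAUAGA differ between miR-376a and miR-376b. Their 5′ arms, which were tested for miR-376a and miR-376b, were also higher in both pairs, by 0.06 and 1.08 for miR-376a-5p and by 1.45 and 0.12 for miR-376b-5p on the log2 scale.

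The time courses differ in how these levels were reached. In the first, all 4 other times after ECS stood above NT-1 for miR-376a-3p, at 4201 to 11355 CPM, and 6h-1 ranked second of 6. In the second, the other times ranged from 764 to 6653 CPM around NT-2, and 6h-2 was the highest. For miR-376b-3p and miR-376c-3p the 6 h library was the highest of its time course both times. Only 7 of the 19 higher arms did so, next to 26 of all 469 (5.54%).

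**Figure D3:**
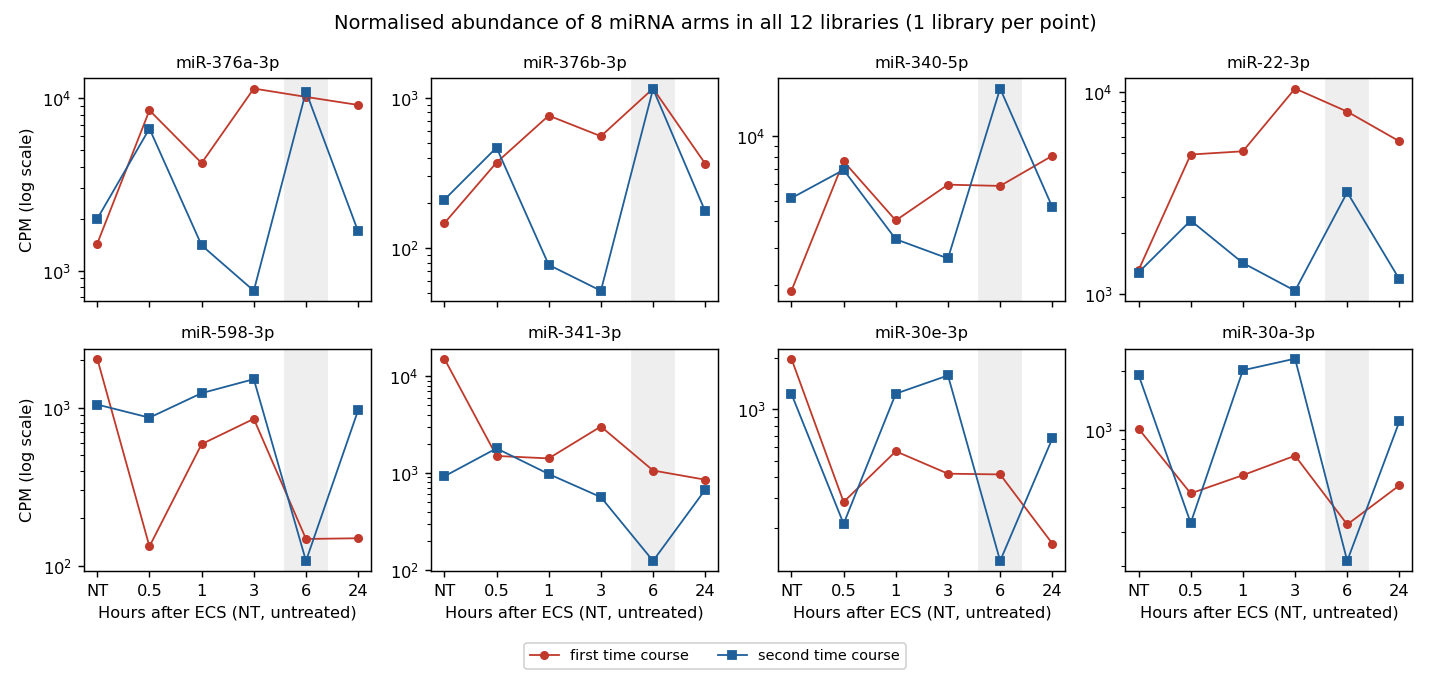
Level of 8 arms in CPM (vertical axis, log scale, a scale of its own in each panel) at each time (horizontal axis, h after ECS), with 1 library per point, red for the first and blue for the second time course, and 6 h shaded. The upper 4 arms are higher and the lower 4 lower at 6 h than in NT in both courses, and in the first course NT-1 is the lowest or highest of the 6 libraries in all 8.

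Next in order was miR-340-5p, an arm from an intron of Rnf130 on chromosome 11 with a seed rich in A and U. Its level was 1889 CPM in NT-1, 5854 in 6h-1, 5134 in NT-2 and 16738 in 6h-2. It was 3.10-fold and 3.26-fold higher at 6 h, and yet 6h-1 only just exceeded NT-2, so the groups were separate by a small margin. miR-22-3p, from an exon of its own host transcript Mir22hg, stood at 1306 and 8002 CPM in the first pair and at 1273 and 3182 CPM in the second. Here the groups did not overlap, and the untreated libraries lay close together. In edgeR the log2 fold change was 1.69 ± 0.98 (SE) for miR-340-5p (unadjusted p = 0.109) and 2.12 ± 1.26 for miR-22-3p (unadjusted p = 0.117). With single libraries left out these values reached down to 0.75 for miR-340-5p (without 6h-2) and 1.30 for miR-22-3p (without 6h-1). Among rarer arms 2-fold or more higher in both were miR-137-3p (1.05 and 2.46 on the log2 scale), a miRNA of neurons, and miR-410-3p (2.40 and 1.25), the last member of the imprinted cluster.

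Of the 19 abundant higher arms, the next 5 in order showed smaller differences in at least 1 pair. miR-186-5p, from an intron of Zranb2, stood at 1830 CPM in NT-1, 2985 in 6h-1, 441 in NT-2 and 946 in 6h-2. The groups overlapped, as NT-1 lay above 6h-2. miR-21a-5p, a miRNA that rises in reactive glia and many injured tissues, stood at 654 and 895 CPM in the first pair. In the second it was at 2988 and 6569 CPM, again with overlap. The other arm of its hairpin, miR-21a-3p, was 2-fold or more lower in both pairs. miR-142a-5p, made in cells of the blood lineage, stood at 5522 and 6987 CPM in the first pair and at 618 and 3576 CPM in the second, and 6 h was the highest time in both courses. For miR-9-3p, the minor arm of a neuronal miRNA, the values were 387 and 484 CPM, then 1663 and 4519 CPM. let-7d-5p, of the largest miRNA family in brain, was at 2026 and 2530, then at 4597 and 6511 CPM. The rise of let-7d-5p in the second pair depends on the TMM scaling, as its share of miRNA counts was 0.419% in NT-2 and 0.422% in 6h-2. Scaled by total miRNA counts, let-7d-5p differed by 0.22 and 0.01 on the log2 scale. In each of these 5 arms the untreated libraries differed from each other by more than the pair with the smaller difference did. With tags under 20 nt left out, the first pair's difference was -0.21 for miR-21a-5p and -0.13 for miR-142a-5p on the log2 scale, so both left the set.

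Among the abundant lower arms, miR-598-3p had the largest difference shared by both pairs. It is processed from an intron of Xkr6 on chromosome 14 and is enriched in brain. Its level was 2039 CPM in NT-1 and 148 in 6h-1, and 1046 in NT-2 and 107 in 6h-2. Both 6 h libraries lay far below both untreated ones, 13.7-fold in the first pair and 9.66-fold in the second. The fitted log2 fold change was -3.60 ± 1.29 (SE), with an unadjusted p of 0.016 in edgeR and 0.004 with the block. In the second course 6h-2 was the lowest, with the other times at 864 to 1513 CPM. In the first course 0.5h-1 and 24h-1 were as low as 6h-1, at 133 and 149 CPM. Restricting to tags of 20 nt and more left the changes at -3.39 and -3.23. With each of the 4 libraries left out in turn, the fitted change stayed between -4.39 and -3.03.

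miR-341-3p, a rodent miRNA from an intron of Rian in the Dlk1-Dio3 domain, stood at 15143 and 1061 CPM in the first pair and at 924 and 124 CPM in the second. The groups overlapped because NT-2 lay below 6h-1, although 6 h was 14.3-fold and 7.42-fold lower within the pairs. NT-1 was far above all other libraries of its course, which lay between 853 and 3020 CPM, and without NT-1 the fitted log2 fold change was -0.64 rather than -3.76. miR-328-5p, from chromosome 8, gave 561 and 12 counts in the first pair and 46 and 0 in the second. The level was 17.2-fold lower in the first pair and at least 3.36-fold lower in the second, where the count of 0 was set to a floor of 3 counts per library. Without NT-1 its fitted log2 fold change was -0.31 rather than -4.24. Its other arm miR-328-3p, at 39.9, 24.4, 418 and 74.8 CPM in NT-1, 6h-1, NT-2 and 6h-2, was lower in both pairs too.

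The 3′ arms of miR-30e and miR-30a, which share the seed UUUCAGU and differ at few bases, were lower together. miR-30e-3p, from an intron of Nfyc, stood at 1987 and 414 CPM in the first pair and at 1233 and 129 CPM in the second. miR-30a-3p stood at 1011 and 327, then at 1909 and 213 CPM. In neither arm did the groups overlap, and edgeR gave log2 fold changes of -2.57 ± 1.17 (SE, unadjusted p = 0.047) and -2.44 ± 1.08 (SE, unadjusted p = 0.043). The 5′ arms, the main products of both hairpins, went opposite ways in the pairs, with log2 changes of -1.28 and 1.86 for miR-30e-5p and of -1.52 and 0.71 for miR-30a-5p. Tags of 18 to 19 nt made up 92.2% of miR-30a-3p in NT-1 and 47.3% in 6h-1. With tags of 20 nt and more the first pair differed by -0.03 for miR-30a-3p and by -1.30 for miR-30e-3p, while the second stayed at -3.18 and -3.35.

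The miR-181 family, whose 5′ arms share the seed ACAUUCA and which acts in lymphocytes and neurons, was lower in 4 of 7 arms and higher in none, next to 24.3% lower and 19% higher of all arms. miR-181a-5p stood at 17132 and 2470 CPM in the first pair and at 2160 and 1090 CPM in the second, and miR-181b-5p at 23546 and 1701, then at 831 and 532 CPM. NT-1 was the exception among all 12 libraries for miR-181b-5p, since the other 11 lay between 470 and 1701 CPM. In NT-1 tags of 18 to 19 nt were 96.3% of miR-181b-5p, against 10.3% in 6h-1, and with longer tags only the differences were -0.33 and -0.68. Without NT-1 the fitted log2 fold change of miR-181b-5p was 0.43 rather than -3.45. That of miR-181a-5p was -0.28 without NT-1 and -1.13 with tags of 20 nt and more, rather than -2.44. The part of tag length in this result was not tested.

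Of the 12 abundant lower arms, those with the largest differences also included miR-744-5p, miR-127-3p, miR-125b-5p and miR-666-5p, while let-7g-5p was lower by little (-0.20 and -0.24 on the log2 scale). miR-744-5p, from an intron of Map2k4, stood at 485 and 145 CPM in the first pair and at 2747 and 993 CPM in the second. It was lower to a like degree in both pairs, 3.34-fold and 2.76-fold, but the courses differed more than that, so the groups overlapped. miR-127-3p, which lies antisense to Rtl1, stood at 1655 and 973 CPM in the first pair and at 9489 and 1590 CPM in the second, and 6 h was the lowest time in both courses. miR-125b-5p, an abundant neuronal miRNA, was steady across courses, at 8276 and 8319 CPM in the untreated and 4706 and 5151 CPM in the 6 h libraries. Its groups were separate, 1.76-fold and 1.62-fold lower at 6 h, with an edgeR log2 fold change of -0.75 ± 0.84 (SE, unadjusted p = 0.387). Its seed relatives miR-125a-5p (-1.69 and -2.56) and miR-351-5p (-0.90 and -1.65) were also lower in both pairs on the log2 scale. For miR-666-5p the levels were 1837 and 645 CPM, then 318 and 166 CPM, and with tags of 20 nt and more the first pair's log2 difference was 1.32, upward.

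Of the 8 lower arms at an unadjusted p under 0.05 in edgeR, 2 not yet described were rare. miR-1843b-3p stood at 103 and 4.87 CPM in the first pair, the latter from 3 counts, and at 27.2 and 7.01 CPM in the second (edgeR log2 fold change -3.43 ± 1.12, SE, unadjusted p = 0.009). miR-339-3p gave 42 and 0, then 4 and 0, at least 5.37-fold lower in the first pair at the floor of 3 counts, with no fold given for the second. The 38 arms 2-fold lower were mostly rare. In 18 of them a 6 h library had no count, and 10 of 38 had 10 or more counts in each of the 4 libraries, against 12 of 19 higher arms. Depth limits these arms, since a count of 0 allows up to 6.83 CPM in 6h-1 and 2.27 CPM in 6h-2, before TMM.

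Which library lay at an extreme for the members differed by time course. In the first, NT-1 was the highest of 6 libraries for 24 of the 38 lower arms and the lowest for 14 of the 19 higher arms. 6h-1 was the lowest for 21 and the highest for 10. In the second, 6h-2 was the lowest for 34 of 38 and the highest for 15 of 19, whereas NT-2 was the highest for 3 and the lowest for 4. Over all 469 arms, NT-1 was the highest of its course in 124 and the lowest in 115, and 6h-1 in 63 and 102. In the second course 6h-2 was the highest in 141 and the lowest in 166, and NT-2 in 45 and 52. NT-1 was thus at an extreme of its course in 239 and 6h-2 in 307. As the 38 and 19 arms were chosen by 6 h against NT, their extremes are in part fixed by that choice. NT-1 had the most short tags of all 12 libraries, and 6h-2 the fewest accepted reads, 1897490. The part of either in the members' differences was not tested.

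Base composition moved with the changes in the second pair. Between the GC content of an arm's most abundant tag and its log2 change, Pearson's r was -0.06 in the first pair and -0.53 in the second over 469 arms that share those libraries. In the second pair the median change was 1.13 for 82 arms under 40% GC, 0.16 for 159 arms of 40 to 50%, -0.65 for 144 of 50 to 60% and -1.38 for 84 of 60% and more. The 19 higher arms had a median GC of 38.1% and the 38 lower arms of 55.0%, against 47.6% in all. After a smooth trend on GC was removed from each library, 11 of the 19 and 17 of the 38 still differed 2-fold in both pairs. miR-376a-3p stood at 3.06 and 2.11 then, miR-598-3p at -3.53 and -2.95 and miR-30e-3p at -2.06 and -3.87. In the second pair miR-340-5p then stood at 0.15, miR-744-5p at -0.07 and miR-666-5p at 0.43. Whether GC content itself gave rise to the differences was not tested.

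**Figure D4:**
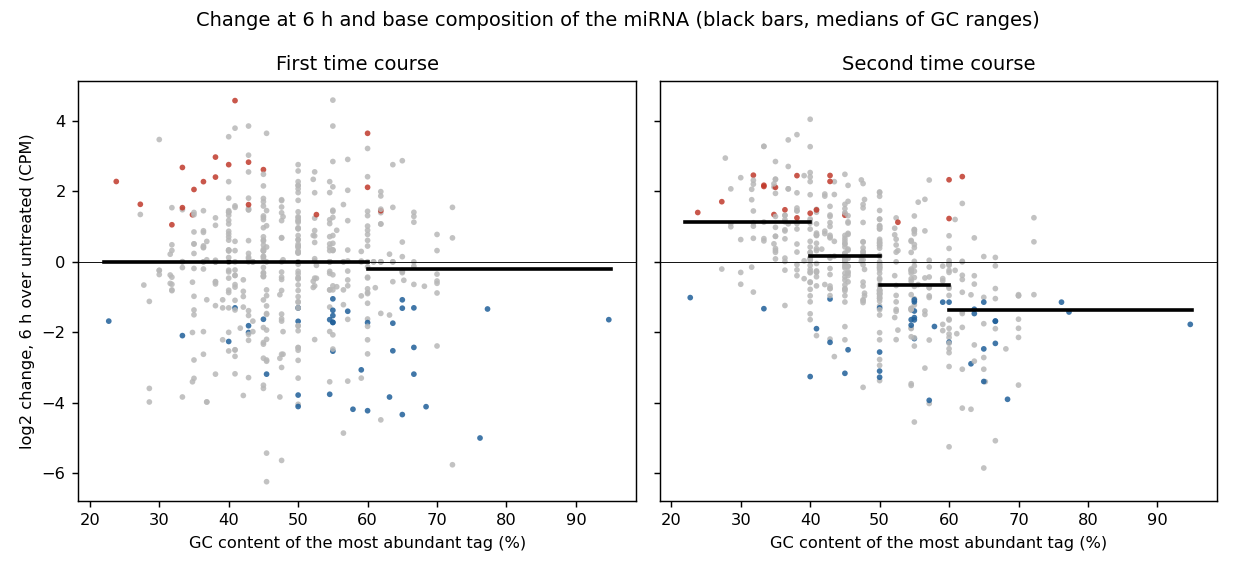
Log2 change in CPM at 6 h (vertical axis) against the GC content of an arm's most abundant tag (horizontal axis, %) in the first (left) and second time course (right), with 1 point per arm, red and blue for arms 2-fold higher and lower in both. Black bars are the medians of arms below 40%, of 40 to 50%, of 50 to 60% and from 60% upward, which descend from 1.13 to -1.38 in the second course and stay between 0 and -0.20 in the first.

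The imprinted Dlk1-Dio3 domain held arms of either direction. In the miR-379/410 cluster 18 of 52 arms tested were higher in both pairs (34.6%, against 19% of all arms) and 12 lower (23.1%, against 24.3%). Of these, 8 and 6 differed 2-fold, where the shares in all arms were 4.05% and 8.1%, and the median changes were 0.15 and 0.09 (log2) against 0 and -0.10 in all arms. Higher beside the miR-376 family were miR-496a-3p (1.62 and 2.28), miR-369-3p (2.28 and 1.40) and miR-544-5p (1.54 and 2.14). Lower were miR-134-5p (-1.72 and -1.58), which acts on dendritic spine size, and miR-668-3p (-2.52 and -1.34). Both kinds lie on the same strand within the cluster. Median GC was 45.0% in this group. It was 58.1% in a list of miRNAs at and near Meg3 and Rtl1 of the same domain, which includes miR-341 from Rian. In that list 1 of 22 arms was higher (4.55%) and 9 lower (40.9%), with medians of -0.25 and -0.82. The most abundant there, miR-127-5p, stood at 10220 and 8524 CPM in the first pair and 7170 and 4313 in the second. No arm of either group passed edgeR's adjusted threshold.

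The CREB-regulated miRNAs showed little common movement at 6 h. miR-132-3p, the arm best known from activity studies, was at 56.1 CPM in NT-1, 60.1 in 6h-1 and 74.1 in NT-2, and 1.68-fold above NT-2 in 6h-2. It was higher by 1.07-fold in the first pair, and the groups overlapped. The other 3 arms went opposite ways in the pairs, miR-132-5p by -0.33 and 0.42, miR-212-3p by -2.47 and 0.49 and miR-212-5p by 1.28 and -0.96 on the log2 scale.

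In the brain-enriched group 9 of 20 arms were higher (45%, against 19% of all arms) and 4 lower (20%, against 24.3%), with medians of 0.28 and 0.28. Its most abundant member, miR-124-3p, the main miRNA of neurons, went opposite ways in the pairs, at 174316 CPM in NT-1, 56263 in 6h-1, 28883 in NT-2 and 144131 in 6h-2. It was 3.10-fold lower at 6 h in the first pair and 4.99-fold higher in the second. Of let-7, 2 of 17 arms were higher and 4 lower, and let-7f-5p, the most abundant arm in both libraries of the second course, differed by -0.64 and 1.11 on the log2 scale. In the miR-29 family 3 of 6 were higher and none lower, and miR-29a-3p differed by 0.15 and 1.63. In the miR-15/16 family, of seed AGCAGCA, 3 of 11 arms were higher and none lower, and 5 of the 6 5′ arms with that seed were lower in the first pair and higher in the second, among them miR-15b-5p (-0.87 and 4.04).

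Opposite changes were also seen in most of the remaining families. The counts of higher and lower arms were 1 and 2 of 10 in miR-30, 0 and 1 of 5 in miR-34 with miR-449, 2 and 2 of 10 in miR-99 with miR-125, 2 and 4 of 11 in the miR-17 and miR-106b clusters, and 2 and 2 of 9 in miR-23, miR-27 and miR-24. In the miR-26 and miR-101 families and among miRNAs made without Drosha (miR-320 and miR-484 among them), 0 of 2 arms each moved together. Their most abundant arms differed by -0.16 and 0.02 (miR-34c-5p), -0.39 and 1.41 (miR-26a-5p), 1.04 and -0.23 (miR-101a-3p), -1.62 and 0.21 (miR-27b-3p), 0.44 and -1.04 (miR-25-3p) and 0.51 and -1.89 (miR-320-3p) on the log2 scale. None of these arms passed edgeR's adjusted threshold, and the family counts stand next to 19% higher and 24.3% lower of all arms, with no test between them.

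**Figure D5:**
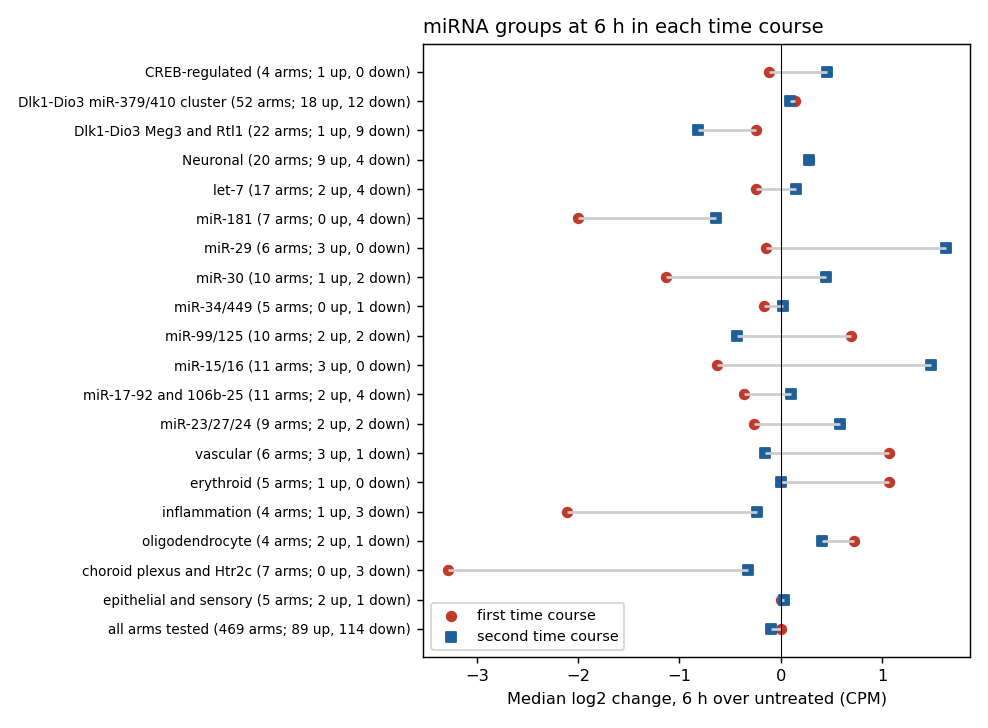
Median log2 change in CPM at 6 h (horizontal axis) of each miRNA group with at least 4 arms tested (vertical axis, with the number of arms and how many were higher or lower in both pairs), in the first (red circles) and second time course (blue squares). The medians of miR-181, Meg3 and Rtl1, inflammation and choroid plexus are below 0 in both courses, while those of miR-29, miR-30, miR-15/16 and miR-99 with miR-125 lie on either side of 0.

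Markers of other cells gave these values beside the changes. The vascular miR-143, miR-145 and miR-126 made up 6.30%, 14.5%, 1.65% and 1.25% of miRNA counts in NT-1, 6h-1, NT-2 and 6h-2, with 3 of 6 arms higher and 1 lower. Erythroid markers (miR-451, miR-144 and miR-486) were at 0.199%, 0.176%, 0.0188% and 0.0249%, and 1 of 5 arms was higher. Those of leukocytes and microglia, mostly miR-142a-5p, were at 0.830%, 0.979%, 0.0569% and 0.232%. Of their 2 arms tested 1 was higher, and the other, miR-150-3p, had no count in the first pair and 24 and 0 counts in the second. The inflammation group, with miR-21a and miR-146, had 1 arm higher and 3 lower of 4, and the oligodendrocyte group 2 higher and 1 lower of 4. Of muscle miRNAs 0 of 3 arms moved together, and of epithelial and sensory ones 2 of 5 were higher and 1 lower. The most abundant arms of these groups differed by 1.30 and 0.09 (miR-143-3p), 1.80 and -0.65 (miR-219a-3p), 1.34 and -0.20 (miR-1a-3p) and -2.21 and 0.03 (miR-200a-3p) on the log2 scale. miRNAs of the choroid plexus and of the Htr2c gene stood at 0.667% in NT-1 and 0.0674% in 6h-1, and at 0.0488% in NT-2 and 0.0572% in 6h-2. In that group 3 of 7 arms were lower in both pairs, and miR-448-3p differed by -3.28 and 1.00. These counts stand next to 19% higher and 24.3% lower of all 469 arms, and each group holds few arms. The part of cell composition in the members' changes was not tested.

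The opposite arms of the same hairpins were read beside the members, and some of them are members themselves. Of the 19 higher arms 13 had an opposite arm that was tested, and of those 6 were higher in both pairs, 3 lower and 4 neither. Of 14 opposite arms of the 38 lower ones, 2 were higher, 4 lower and 8 neither. Over all 469 arms 19% were higher and 24.3% lower, and the groups are small. The other arm of miR-22, miR-22-5p, differed by 2.55 and 0.14, and that of miR-137, miR-137-5p, by 1.42 and 0.54. The arms of miR-128, a miRNA of neurons, moved apart, with miR-128-5p lower (-3.19 and -2.31) and miR-128-3p higher (1.76 and 0.30). With all tags those of miR-21a did too, with miR-21a-3p lower by 2-fold or more in both pairs and miR-21a-5p higher (0.45 and 1.14). With tags under 20 nt left out, miR-21a-5p was no longer higher in the first pair.

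The 6 h libraries were last set against the other 4 times after ECS, which leaves out both untreated libraries but shares the 6 h ones. In edgeR 0 of 469 arms (0%) passed an adjusted p of 0.05, and 24 (5.12%) had an unadjusted p under 0.05, 19 higher (4.05%) and 5 lower (1.07%) at 6 h. With the block edgeR gave 66 (14.1%) and called 3 arms (0.64%), all higher, namely miR-301a-3p, miR-467a-3p and miR-467d-3p (adjusted p = 0.0471), of which both miR-467 arms have the same counts because they share their tags. DESeq2 called 0 without the block, with 37 at an unadjusted p under 0.05 (7.89%), and 81 with it (17.3%). Of the 296 arms to which DESeq2 with the block gave an adjusted p, it called 22 (7.43%), 10 higher (3.38%) and 12 lower (4.05%). The calls thus rest on the block and on the tool.

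Of the 10 arms with the smallest adjusted p in an alternative, 7 were also higher or lower against NT in both pairs, in the same direction. As both comparisons use the 6 h libraries, this overlap is no independent support. miR-301a-3p, the first of them, from an intron of Ska2, was at 114 CPM in 6h-1 against 16.8 to 34.7 at the other times and at 61.9 CPM in 6h-2 against 0.77 to 5.83. Yet NT-1 was at 241 CPM, above 6h-1, and NT-2 at 4.87. Its tags were short, with at least 85.7% of 18 to 19 nt in each of the 4 libraries. miR-6236-5p, from chromosome 9, was higher than NT in both pairs, at 36.2 and 159 CPM and at 48.7 and 248 CPM. In the second course it was higher still at 24 h, at 287 CPM. With the block and with the GC trend removed, edgeR called 1 arm (0.213%) in this comparison, and that was miR-6236-5p. miR-142a-5p was higher, and miR-664-5p, miR-25-5p, miR-328-3p, miR-127-3p and miR-1298-5p were lower, in this comparison and against NT in both pairs. miR-664-5p stood at 9.98 and 8.12 CPM in the first pair and at 307 and 82.9 CPM in the second. miR-25-5p, from an exon of Mcm7, gave 0.62 and 0 CPM, then 24.9 and 2.34 CPM. In the first pair both its values lay below the floor of 3 counts. Its direction there, and so its place among the 7, rests on fewer than 3 reads. miR-1298-5p, from an intron of Htr2c, stood at 471 and 47.1, then at 24.6 and 12.9 CPM. The erythroid miR-144-3p and miR-322-5p of the miR-15/16 family were higher than at the other times, but against NT they went opposite ways, by -0.66 and 2.94 and by -0.24 and 3.26 on the log2 scale.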

How the data were processed

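Size-selected RNA of about 18 to 24 nt was sequenced with the Illumina DGE small RNA kit. The authors removed adapters and deposited raw read counts per distinct tag of at least 18 nt for each library, without normalization, molecular identifiers or alignment. Tags were matched here, exactly and over their full length, to 1174 named hairpins of GENCODE M21 (GRCm38), the arm was set by the tag's midpoint, and tags of several miRNAs were split equally and rounded. Arms with 10 or more counts in at least 2 of 12 libraries were kept. Counts were scaled by TMM, and log2 changes within pairs used a prior count of 2. edgeR 4.0.16 (quasi-likelihood, all 12 libraries, 2-sided, Benjamini-Hochberg) and DESeq2 1.42.0 in R 4.3.3 were run. Both were tested on simulated data, where edgeR without a term for the time course had little power. The simulation used the spread fitted with that term and set fold changes in the 6 h libraries. It modelled neither tag length nor GC content, so its power need not hold for these libraries. RefSeq names matched 364 of the 469 arms. RefSeq names were used where given, and miR-124a was called miR-124.

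The members, lists and naming rule were chosen with earlier results of these data known. Named were the 8 higher and 8 lower arms of 0.1% or more with the largest smaller change, up to 10 arms of lowest unadjusted p in edgeR, the most abundant arm of each list with all CREB-regulated arms, and up to 10 arms called in an alternative. Other arms were chosen after their values were seen. The study's results section gives the 2 replicate numbers as separate time courses. Its read table, however, gives more known miRNA reads to NT-1, where the deposited NT-2 held more (4282006 against 1067558). The deposited numbers were kept. By these, libraries of a time course deviated together (mean correlation 0.519 over 15 pairs of times, lowest 0.308, NT with 6 h 0.44), so they were treated as paired. Without the block, p-values measure the spread between libraries of a group, which holds the time course as well as the animal. With the block, they measure the spread between libraries left after the time course. With 1 animal per library, that spread holds library preparation and sequencing as well as the animal. Tags sharing PCR copies cannot be separated, so floors cover counting error only. Alternatives were other scalings, filters, matching rules, tag lengths, the block, DESeq2, a GC trend (loess, span 0.75) and leaving out each library.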

Additional observations from a re-analysis of the deposited data

How the results depend on the processing

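No arm passed an adjusted p of 0.05 at 6 h against NT under any setting except the replicate block in DESeq2, which called 3, and this includes leaving out each of the 4 libraries in turn (0 to 0 with and without the block). Against the other times after ECS the replicate block gave 3 calls in edgeR and 22 in DESeq2, and the block with the GC trend removed gave 1. Leaving out either 6 h library gave 0 without the block, as did all libraries, and was not run with it. Unadjusted p under 0.05 at 6 h against NT went from 9 arms to 32 with the replicate block, to 1 without NT-1, 23 without 6h-1, 25 without NT-2 and 14 without 6h-2 (with the block 9, 50, 72 and 32). The number of arms higher in both pairs was 58 with total miRNA counts, 43 with 10 counts in each of the 4 libraries (of the 221 arms that had them) and 43 per accepted read. The number lower was 180 with no filter on low counts, 50 with 10 counts in each of the 4 libraries (of 221) and 218 per accepted read. The log2 fold change turned without NT-1 for miR-666-5p (0.35, range over the libraries left out -2.70 to 0.35), miR-181b-5p (0.43, -4.77 to 0.43) and let-7d-5p (-0.02, -0.39 to 0.98). It turned without 6h-1 (-0.26) or NT-2 (-0.27) for miR-186-5p (up to 2.15) and without NT-2 for miR-142a-5p (-0.45 to 3.10). Without 6h-2 it turned for miR-21a-5p (-0.96 to 2.05), miR-9-3p (-1.02 to 2.23) and let-7d-5p (-0.39). These are fits with a lone library in 1 group, assumed to vary like the others, and the cause was not tested. Scaling per accepted read, the GC trend and the block without each library were chosen after seeing the data. For single arms, 619 other recomputed values kept their direction and side of the threshold, or moved by less than the spread of the pairs. As no arm passed the threshold in the main fit, keeping its side was nearly fixed, and size was not counted. Without NT-1, miR-341-3p went from -3.76 to -0.64 and miR-328-5p from -4.24 to -0.31, both among the 619. Another 19 values moved by more than that spread, such as the mean change of miR-127-5p from -0.50 to 0.07 with the GC trend removed.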
